A study of Mus musculus with 12 samples.

Results

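Cells build pyrimidine nucleotides either from small precursors, ending in UMP and then CTP, or by recycling nucleosides, and DNA synthesis adds a further demand for deoxynucleotides and for dTMP. The enzymes of these steps were examined as 9 genes of the 12591 in the deposited table. Cad, Dhodh, and Umps make UMP, Ctps and Ctps2 make CTP, Rrm1 and Rrm2 encode the subunits of ribonucleotide reductase, Tyms makes dTMP, and Tk1 salvages thymidine. RNA of Rrm2, Tyms, and Tk1 is known to be scarce in resting cells and to accumulate as cells enter S phase, whereas UMP and CTP are also needed for RNA and for the activated sugars and lipids that resting cells make. The 9 genes were taken by name, through the Ensembl identifiers of the table. All 9 names were found in the table.

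The cells were immortalized embryonic fibroblasts of C57 PER2::LUC mice, heterozygous for a luciferase reporter knocked in at the circadian gene Per2. The 4 groups were CTL, DZ at 10 µM, adenine at 1 mM, and SAM at 1 mM, each with 3 dishes harvested after 24 h, and every group, CTL included, had 3.3 mM HCl in the medium. DZ is Deazaneplanocin A, an inhibitor of adenosylhomocysteinase, the enzyme that removes the methylation by-product SAH. Adenine is a purine base, and SAM is S-adenosylmethionine, the methyl donor of most methyltransferases. The cells were confluent when the compounds were added, and nothing says that the dishes came from separate cell preparations, so p-values measure the spread between dishes only. DZ was given at a lower dose than adenine and SAM, and the doses of adenine and SAM were equal.

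Reads on the listed genes numbered between 45649534 and 56789090 per library. Of 10 fibroblast markers, 8 were in the table, against 1 of 7 leukocyte markers and none of the 6 epithelial or 5 endothelial markers, in a table that lists only genes with at least 1 CPM in every library. The summed level of the fibroblast markers was 21841 to 22281 CPM in CTL, 27665 to 28259 in DZ, 24223 to 26540 in adenine, and 15862 to 17239 in SAM. The leukocyte marker was Cd68, a lysosomal protein also present outside leukocytes, at 2.99 to 3.96 CPM in CTL, 2.70 to 3.75 in DZ, 10.8 to 12.3 in adenine, and 15.5 to 17.6 in SAM. With SAM, 7 of the 8 fibroblast markers rose, from 0.17 for Col1a2 to 2.55 for Pdgfra on the log2 scale, and Fn1, the fibronectin gene, fell by 1.58. The part of these marker levels in the results below was not tested.

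The stretches just before the start sites of Rrm1, Tyms, and Umps are shown because Rrm1 and Tyms moved together under adenine and SAM, while Umps had its largest rise under DZ. They are RefSeq sequences of the GRCm38.p6 table, found once each in GRCm39, at chr7:102090652-102090889 on the plus strand for Rrm1, chr5:30278634-30278873 on the minus strand for Tyms, and chr16:33787430-33787658 on the minus strand for Umps. Each is written in the direction of its gene, with capitals for CCAAT, the NF-Y motif, and for CACGTG, the E-box, and stops at the first annotated exon base of GENCODE vM39, which lies before the RefSeq start. Rrm2 and Tk1 also rose under adenine and SAM, but cut in this way their stretches hold 0 and 48 bases and are not shown. Whether the marked motifs have a part in any change was not tested.
Rrm1: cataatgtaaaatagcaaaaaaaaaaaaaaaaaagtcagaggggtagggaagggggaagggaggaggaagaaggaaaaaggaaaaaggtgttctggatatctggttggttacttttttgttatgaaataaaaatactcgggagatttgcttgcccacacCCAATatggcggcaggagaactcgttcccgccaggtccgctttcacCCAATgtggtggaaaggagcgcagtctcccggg
Tyms: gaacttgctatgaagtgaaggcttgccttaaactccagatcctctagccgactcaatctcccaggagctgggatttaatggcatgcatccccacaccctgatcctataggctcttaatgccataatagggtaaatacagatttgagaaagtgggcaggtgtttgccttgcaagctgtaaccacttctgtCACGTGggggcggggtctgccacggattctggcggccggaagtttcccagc
Umps: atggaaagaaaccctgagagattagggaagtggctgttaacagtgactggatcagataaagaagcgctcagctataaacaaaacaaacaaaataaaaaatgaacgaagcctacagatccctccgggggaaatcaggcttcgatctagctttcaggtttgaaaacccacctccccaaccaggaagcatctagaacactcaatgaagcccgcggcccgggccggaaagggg
Both strands of the 250 bases before each RefSeq start were searched for the members other than Dhodh, and positions count back from that start to the first base of the motif. CCAAT occurred in Rrm1 at 91 and 45 bases, in Rrm2 at 50, and in 1 of the promoters of Ctps2 at 68, and 33.9% of the 32851 promoters in the table hold it. Among the members searched, CACGTG occurred in Tyms alone, at 61 bases, against 6.02% of all promoters. TTTCGCGC and TTTGGCGC, the E2F motif as searched here, are in 0.654% of all promoters and in none of the member windows searched, which says only that these letters are not in these windows.

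The deoxynucleotide genes Rrm1, Rrm2, Tyms, and Tk1 were far higher with adenine and higher again with SAM, with SAM folds over CTL between 3.01 and 8.03. The UMP genes rose by less, except that Cad did not pass with SAM, and the levels of Umps and Cad were highest with DZ. Ctps fell in all 3 treatments. Ctps2 rose with adenine and SAM and was lower with DZ, where its call did not hold in every setting. Each gene was compared by limma on the deposited log2 CPM in 1 model of all 12 libraries, with Benjamini-Hochberg adjustment over 12591 genes and a threshold of 0.01. All 3 comparisons with CTL use the same 3 control dishes. Ctps, Rrm2, Tk1, and Tyms have near-copies elsewhere in the genome, processed pseudogenes absent from the table, whose reads could not be separated from theirs.

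With DZ, 8 of 9 members passed, 6 higher and 2 lower, where 45.9% of all genes passed, 22.6% higher and 23.4% lower. The count of members with DZ ran from 7 to 8 with single dishes left out. With adenine, 9 of 9 passed, 8 higher and 1 lower, beside 61.6% of all genes, 30.6% higher and 31% lower. With SAM, 8 of 9 passed, 7 higher and 1 lower, beside 69.3% of all genes, 33.7% higher and 35.7% lower. With DZ, adenine, and SAM, 8, 9, and 8 members had no overlap with CTL, beside 65.4%, 74.7%, and 77.6% of all genes. Between 2 treatments, 61.3% to 77.6% of all genes had no overlap. The median log2 difference of the members was 0.33 with DZ, 0.28 with adenine, and 0.54 with SAM, whereas the median of all genes was -0.0057, -0.0030, and -0.015. Scaled by plain read totals, the median of all genes with SAM moved to 0.11 and the calls to 5462 higher and 3462 lower, in place of 4237 and 4494, and the 9 members stood at 8 higher and 1 lower. In these bulk samples, more cells that transcribe a gene and more RNA per cell cannot be told apart.

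**Figure D1:**
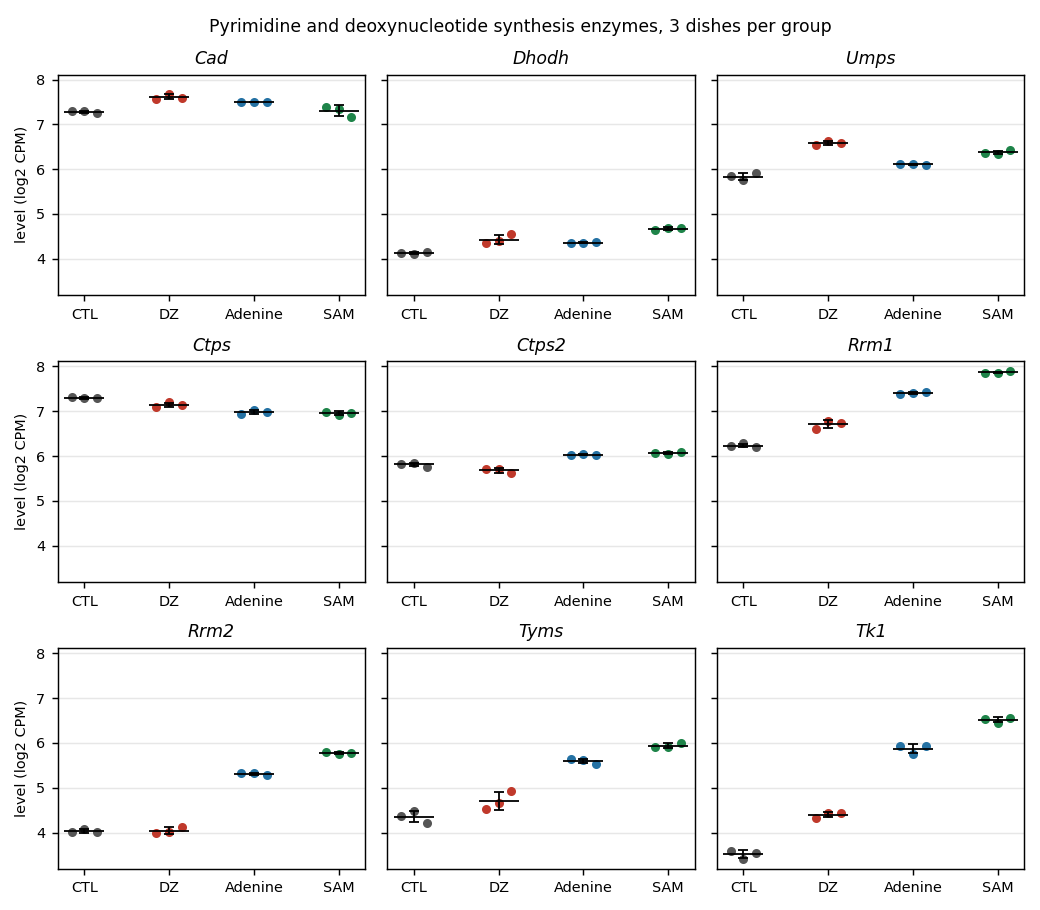
Level of each enzyme in log2 CPM (y axis, 1 scale for all panels) in the 3 dishes of each group (x axis). Points are dishes, long bars are group means, and error bars are SD. Tk1, Rrm1, Rrm2, and Tyms climb from CTL to adenine to SAM, Ctps steps down, and Cad with SAM spreads from 7.17 to 7.40.

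Thymidine kinase Tk1 phosphorylates thymidine in the cytosol (ENSMUSG00000025574, chr11:117702770-117717042 of GRCm39, minus strand). It was at 3.58, 3.41, and 3.54 log2 CPM in CTL and at 4.33, 4.44, and 4.43 in DZ. With adenine it was at 5.94, 5.75, and 5.93, and with SAM at 6.54, 6.45, and 6.56. The 4 groups did not overlap, and their order was CTL, DZ, adenine, SAM. A lack of overlap between 2 groups was common among all genes, as given above. In limma the log2 difference from CTL was 0.89 with DZ, 2.36 with adenine, and 3.00 with SAM (SE 0.060, n = 3 dishes per group), or 1.85-fold, 5.13-fold, and 8.03-fold, with Benjamini-Hochberg adjusted p of 1.13e-08, 6.32e-14, and 1.56e-15. With SAM the difference stood at percentile 99.9 of all genes. In CTL it rested on 508 to 531 reads per library, and in SAM on 4706 to 5549.

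Exons of Tk1 overlap those of Syngr2 by 630 bases and those of Afmid by 121 bases, both on the opposite strand and both in the table. The library kit keeps strand, and the strand setting of the counting is not given in the sources used here. Exons of Rrm2, Ctps, and Umps overlap opposite-strand genes of noncoding RNA by 1437, 289, and 234 bases. These noncoding genes are not in the table. Syngr2, a vesicle protein gene, stood at 6.12 log2 CPM in CTL. Its log2 difference was 0.41 with DZ (limma with Benjamini-Hochberg adjusted p = 8.24e-07), 0.0032 with adenine (adjusted p = 0.949), and 0.19 with SAM (adjusted p = 0.000586). Afmid did not pass in any of the 3 comparisons, with log2 differences of -0.50, 0.53, and 0.59 and limma Benjamini-Hochberg adjusted p of 0.0863, 0.063, and 0.0353.

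Rrm1, the large subunit that carries the active site of ribonucleotide reductase (ENSMUSG00000030978, chr7:102090890-102119709, plus strand), was at 6.22, 6.28, and 6.20 log2 CPM in CTL. It was at 6.61, 6.78, and 6.74 in DZ, at 7.39, 7.41, and 7.43 in adenine, and at 7.85, 7.86, and 7.89 in SAM. Every group lay above the one before it, with no overlap. The limma log2 differences from CTL were 0.48, 1.18, and 1.63 (SE 0.039), with Benjamini-Hochberg adjusted p of 7.8e-08, 7.44e-13, and 9.13e-15.

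Rrm2, the small subunit that supplies the radical and is made in dividing cells (ENSMUSG00000020649, chr12:24757811-24764145, plus strand), was at 4.004, 4.07, and 4.01 log2 CPM in CTL and at 3.99, 4.02, and 4.12 in DZ. These 2 groups overlapped. The DZ difference was 0.013 (95% interval -0.085 to 0.11, limma with Benjamini-Hochberg adjusted p = 0.822), so a rise as large as that of Rrm1 lies outside the interval. With adenine Rrm2 was at 5.33, 5.32, and 5.29, and with SAM at 5.79, 5.75, and 5.77, well apart from CTL and from each other. The limma log2 differences were 1.28 and 1.74 (SE 0.046), with Benjamini-Hochberg adjusted p of 1.72e-12 and 3.02e-14.

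Tyms, which methylates dUMP to dTMP (ENSMUSG00000025747, chr5:30263198-30278633, minus strand), was at 4.36, 4.47, and 4.22 log2 CPM in CTL and at 4.53, 4.67, and 4.92 in DZ. Both groups spread by more than those of the other members, and the lowest DZ dish lay just above the highest CTL dish. The DZ difference was 0.35 (SE 0.081, limma with Benjamini-Hochberg adjusted p = 0.00173), and without CTL dish 3 it was 0.29 and did not pass (adjusted p = 0.0113). With adenine Tyms was at 5.63, 5.62, and 5.54, and with SAM at 5.91, 5.91, and 6.001. The differences of 1.24 and 1.59 put both groups clear of CTL (limma with Benjamini-Hochberg adjusted p of 1.7e-09 and 5.99e-11).

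The ratio of reads on 2 genes within a library does not depend on how libraries are scaled, and 4 such ratios were added after seeing the data. Rrm2 had 0.215, 0.216, and 0.218 reads per read of Rrm1 in CTL and 0.162, 0.147, and 0.162 in DZ, a log2 change of -0.46. In adenine the ratio was 0.238, 0.234, and 0.226, and in SAM 0.240, 0.231, and 0.230, changes of 0.10 and 0.11. The proportion of the subunits thus moved less with adenine and SAM, where both rose, than with DZ, where Rrm1 rose and Rrm2 did not pass. With 3 dishes against 3, a two-sided exact permutation test cannot go below p = 0.1, and it gave 0.1 for each of these changes.

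Rrm2b, the small subunit known as a p53 target and used outside S phase, moved the other way. Its log2 difference was -0.29 with DZ, -0.50 with adenine, and -1.25 with SAM (SE 0.059), all past the limma threshold with Benjamini-Hochberg adjusted p of 0.000651, 1.72e-06, and 2.26e-11. Rrm2 had 0.444, 0.420, and 0.405 reads per read of Rrm2b in CTL, 0.494, 0.494, and 0.583 in DZ, 1.40, 1.52, and 1.45 in adenine, and 3.64, 3.17, and 3.29 in SAM. The ratio lay below 1 in every CTL and DZ library and above 1 in every adenine and SAM library, and since the transcripts differ in length only its change is read here. The ratio was 7.96-fold higher with SAM than in CTL (exact permutation p = 0.1, the smallest possible).

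Tk2, the mitochondrial thymidine kinase, fell by 0.23 on the log2 scale with adenine and by 0.32 with SAM (limma with Benjamini-Hochberg adjusted p of 0.000149 and 4.55e-06), and its difference with DZ was 0.020 (adjusted p = 0.704). Tk1 had 0.330, 0.296, and 0.311 reads per read of Tk2 in CTL and 3.05, 3.00, and 3.36 in SAM, a ratio 10.0-fold higher. In adenine the ratio was 1.99, 1.70, and 1.98, and in DZ 0.539, 0.590, and 0.583. The groups did not overlap, and the two-sided exact permutation p was 0.1 in each treatment, the smallest possible.

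**Figure D2:**
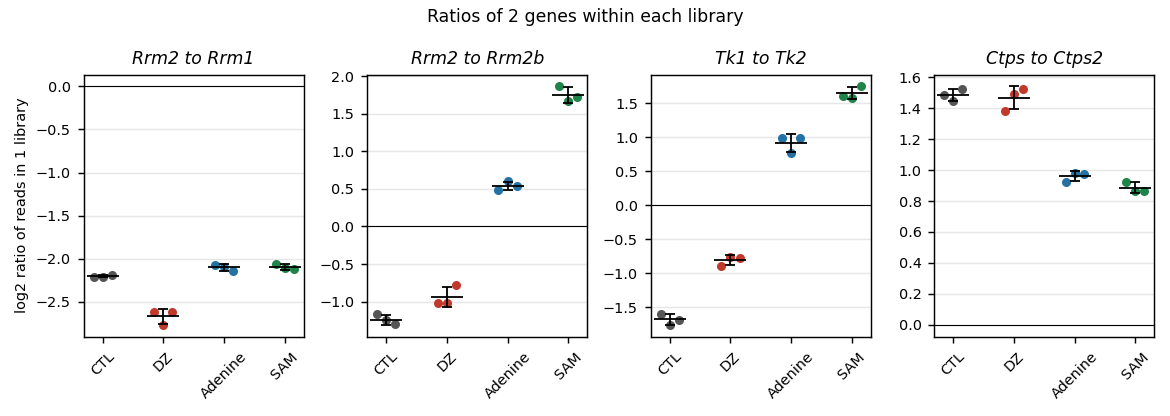
Log2 ratio of the reads of 2 genes within each library (y axis, a separate scale per panel) for the 3 dishes of each group (x axis), with mean and SD. Rrm2 to Rrm1 drops with DZ only, Rrm2 to Rrm2b and Tk1 to Tk2 climb most with adenine and SAM, and Ctps to Ctps2 falls with adenine and SAM. Transcripts differ in length, so only changes between groups are read, not the position relative to 0.

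Cad, the multifunctional enzyme that opens UMP synthesis (ENSMUSG00000013629, chr5:31212111-31236418, plus strand), was at 7.30, 7.29, and 7.26 log2 CPM in CTL. It was at 7.57, 7.67, and 7.60 in DZ, and at 7.51, 7.51, and 7.50 in adenine, both above all CTL dishes. With SAM it was at 7.40, 7.35, and 7.17, so that 2 dishes lay above and 1 below every CTL dish. The limma log2 difference was 0.33 with DZ and 0.22 with adenine (SE 0.046, Benjamini-Hochberg adjusted p of 2.16e-05 and 0.000541). With SAM it was 0.021 (95% interval -0.078 to 0.12, limma Benjamini-Hochberg adjusted p = 0.686). Scaled by plain read totals, Cad with SAM passed at 0.14 (adjusted p = 0.0089), and without SAM dish 1 the difference was -0.026 (adjusted p = 0.618).

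Dhodh, the mitochondrial enzyme that oxidizes dihydroorotate to orotate (ENSMUSG00000031730, chr8:110317492-110335347, minus strand), was at 4.12, 4.11, and 4.16 log2 CPM in CTL and at 4.34, 4.39, and 4.55 in DZ. It was at 4.35, 4.36, and 4.38 in adenine and at 4.64, 4.68, and 4.70 in SAM. All treated dishes lay above all CTL dishes, and DZ and adenine overlapped. The limma log2 differences were 0.30, 0.23, and 0.54 (SE 0.055, Benjamini-Hochberg adjusted p of 0.000289, 0.00142, and 2.18e-07). After quantile normalization the adenine difference was 0.14 and did not pass (limma Benjamini-Hochberg adjusted p = 0.0286).

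Umps, which turns orotate into UMP (ENSMUSG00000022814, chr16:33774077-33787429, minus strand), was at 5.85, 5.75, and 5.90 log2 CPM in CTL. Its highest values were in DZ, at 6.55, 6.64, and 6.58. It was at 6.12, 6.11, and 6.10 in adenine and at 6.36, 6.35, and 6.42 in SAM. No 2 groups overlapped. The limma log2 differences were 0.76 with DZ, 0.28 with adenine, and 0.54 with SAM (SE 0.040, Benjamini-Hochberg adjusted p of 8.98e-10, 1.6e-05, and 5.61e-09). Among the members Umps was the exception to the order in which SAM lay above DZ for the other genes that rose in both.

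CTP synthase 1, which aminates UTP to CTP, is named Ctps (ENSMUSG00000028633, chr4:120395395-120471131, minus strand). It was at 7.32, 7.28, and 7.29 log2 CPM in CTL, 7.10, 7.20, and 7.14 in DZ, 6.95, 7.03, and 6.99 in adenine, and 6.99, 6.91, and 6.96 in SAM. Every treated dish lay below every CTL dish, and adenine and SAM overlapped. The limma log2 differences were -0.15, -0.31, and -0.34 (SE 0.033, Benjamini-Hochberg adjusted p of 0.00142, 6.61e-07, and 1.44e-07).

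Its paralog Ctps2, which catalyzes the same step (ENSMUSG00000031360, chrX:161684145-161820217, plus strand), was at 5.83, 5.84, and 5.76 log2 CPM in CTL and at 5.72, 5.71, and 5.62 in DZ. It was at 6.02, 6.04, and 6.02 in adenine and at 6.07, 6.05, and 6.09 in SAM. Adenine and SAM thus lay above CTL and DZ below it. The limma log2 differences were -0.13, 0.22, and 0.26 (SE 0.037, Benjamini-Hochberg adjusted p of 0.00654, 7.14e-05, and 9.87e-06). The DZ call did not hold without CTL dish 1 (-0.12, adjusted p = 0.0263), CTL dish 2 (-0.12, adjusted p = 0.028), DZ dish 2 (-0.14, adjusted p = 0.0109), or DZ dish 3 (-0.099, adjusted p = 0.0409), nor with plain read totals (-0.11, adjusted p = 0.0232), without a variance trend (adjusted p = 0.0103), or in a separate model of CTL and DZ (adjusted p = 0.0148), all by limma with Benjamini-Hochberg adjustment. Ctps had 2.80, 2.72, and 2.87 reads per read of Ctps2 in CTL and 2.61, 2.81, and 2.88 in DZ (exact permutation p = 0.9). In adenine the ratio was 1.90, 1.98, and 1.96 and in SAM 1.90, 1.82, and 1.82, below all CTL libraries (exact permutation p = 0.1 for each, the smallest possible).

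**Figure D3:**
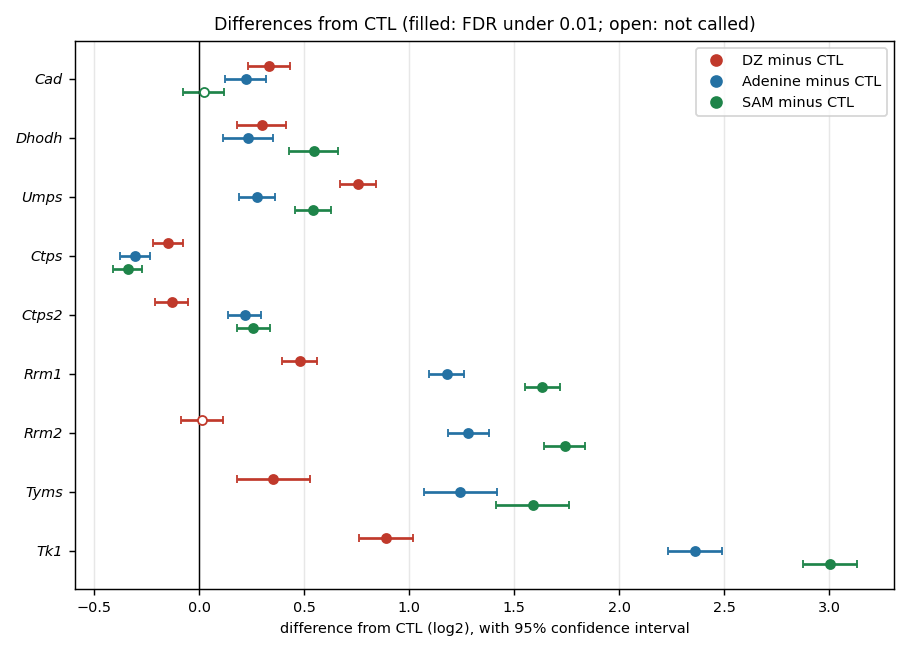
Log2 difference of each enzyme from CTL (x axis) by treatment, with 95% confidence intervals from limma. Filled points passed an FDR of 0.01 and open points did not. Tk1 reaches 3.00 with SAM, Umps is the one member that rose most with DZ among those that passed in all 3 treatments, and Ctps lies below 0 throughout.

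Per kilobase of the canonical transcript, the order of the members changed between groups. The order within a group rests on the annotated length of that transcript, and which transcripts these cells make was not tested. In CTL the order by mean CPM per kb was Ctps at 57.7, Cad at 20.1, Rrm1 at 15.9, Umps at 12.5, Dhodh at 8.19, Tk1 at 7.91, Ctps2 at 6.96, Tyms at 6.43, and Rrm2 at 6.22. The ranges over the 3 dishes of Dhodh and Tk1, of Ctps2 and Tyms, and of Tyms and Rrm2 overlapped. In SAM, Tk1 led at 63.6, followed by Rrm1 at 49.3 and Ctps at 45.5, and then by Rrm2 at 20.8, Cad at 20.5, Tyms at 19.3, Umps at 18.1, Dhodh at 11.96, and Ctps2 at 8.32. There the ranges of Rrm2 and Cad and of Cad and Tyms overlapped. Tk1 thus went from the middle of the order to its top. With DZ the order kept Ctps first at 52.1 and Rrm2 last at 6.28, where its range overlapped that of Ctps2 at 6.36. With adenine Tk1 was next to Ctps, at 40.7 against 46.6.

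SAM and adenine were set side by side at the same dose and time. Between them 7 of 9 members passed, 6 higher with SAM and Cad lower, where 42.7% of all genes passed. The limma log2 difference of SAM minus adenine was 0.64 for Tk1, 0.46 for Rrm1, 0.46 for Rrm2, 0.34 for Tyms, 0.31 for Dhodh, 0.26 for Umps, and -0.20 for Cad, with Benjamini-Hochberg adjusted p between 1.56e-07 and 0.00227. Ctps and Ctps2 did not pass, at -0.034 (95% interval -0.11 to 0.037) and 0.041 (95% interval -0.037 to 0.12). The Tyms call did not hold without adenine dish 3 (0.31, limma Benjamini-Hochberg adjusted p = 0.0125), nor the Cad call with plain read totals (-0.14, adjusted p = 0.0156).

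DZ at its lower dose differed from adenine in 7 of 9 members, beside 64.3% of all genes, and from SAM in 9 of 9, beside 69% of all genes. In DZ minus adenine, Rrm2 stood at -1.27, Tk1 at -1.47, Tyms at -0.89, Rrm1 at -0.70, and Ctps2 at -0.35, whereas Umps at 0.48 and Ctps at 0.16 were higher with DZ. Cad at 0.11 and Dhodh at 0.065 did not pass (limma with Benjamini-Hochberg adjusted p of 0.0415 and 0.297). In DZ minus SAM, Cad at 0.31, Umps at 0.22, and Ctps at 0.19 were higher with DZ and the remaining 6 lower, down to -2.12 for Tk1. The calls of Umps (0.12, limma Benjamini-Hochberg adjusted p = 0.0146) and Ctps (0.096, adjusted p = 0.0151) against SAM did not hold with plain read totals. The doses differ by design, so that compound and dose cannot be told apart here.

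Of 43 other names on a list of pyrimidine and deoxynucleotide genes, 32 were in the table. With DZ, 16 of these rose and 3 fell, with adenine 10 rose and 10 fell, and with SAM 15 rose and 9 fell. The shares that passed, 59.4%, 62.5%, and 75%, lie beside the 45.9%, 61.6%, and 69.3% of all genes, and the median log2 differences were 0.21, 0.049, and 0.12. The shares with adenine and SAM were thus near the background.

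Genes that supply or break down deoxynucleotides and dTMP were among those that rose, while Rrm2b, Tk2, and Dctd were among those that fell with SAM. Dck, the kinase that salvages deoxycytidine, rose by 1.33 with adenine and 1.46 with SAM on the log2 scale, and its difference with DZ was 0.064 (limma Benjamini-Hochberg adjusted p = 0.483). Dtymk, which phosphorylates dTMP, rose by 0.43, 0.75, and 1.07, and Dctpp1, a dCTP pyrophosphatase, rose by 0.45, 0.53, and 0.73 in DZ, adenine, and SAM. Shmt1, a folate enzyme, rose by 0.74, 0.60, and 0.41, with its largest value under DZ. Dut, which makes dUMP from dUTP, rose by 0.31 with adenine and 0.20 with SAM, and stood at 0.11 with DZ (limma Benjamini-Hochberg adjusted p = 0.053). Dctd, dCMP deaminase, rose by 0.20 with DZ and fell by 0.43 with SAM, at -0.034 with adenine (adjusted p = 0.446). Samhd1, which degrades dNTPs, rose in all 3 treatments, by 0.51, 0.36, and 0.58.

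Of the 2 nucleoside transporters in the table, 0 passed with DZ, 1 rose with adenine, and 2 rose with SAM. Slc29a1, an equilibrative nucleoside transporter, rose by 0.79 with adenine and 0.71 with SAM, and stood at -0.10 with DZ (limma Benjamini-Hochberg adjusted p = 0.0375, above the threshold), where it passed without CTL dish 2 (-0.15, adjusted p = 0.00463). Its relative Slc29a2 rose by 0.56 with SAM, and stood at 0.21 with adenine and 0.24 with DZ, neither past the threshold, although the DZ value passed without DZ dish 1 (0.30, adjusted p = 0.0089). Nt5e, the surface enzyme that removes phosphate from AMP and other nucleoside monophosphates, fell by 1.29 with adenine and by 1.62 with SAM, and stood at 0.069 with DZ (adjusted p = 0.139). Uckl1, of the uridine-cytidine kinase family, fell by 0.46, 0.61, and 0.42 in DZ, adenine, and SAM. Uck2, the uridine-cytidine kinase, rose by 0.23 with DZ, fell by 0.18 with adenine, and fell by 0.15 with SAM. With plain read totals Uck2 did not pass with adenine (-0.12, limma Benjamini-Hochberg adjusted p = 0.0131) or SAM (-0.026, adjusted p = 0.554), and its SAM call did not hold without CTL dish 3 (-0.13, adjusted p = 0.0167) or SAM dish 2 (-0.10, adjusted p = 0.0193). That SAM call was also lost with quantile normalization (-0.13, adjusted p = 0.0108) and in a separate model of CTL and SAM (adjusted p = 0.0122). Cda, cytidine deaminase, fell by 0.51 with adenine, and stood at -0.50 with DZ (adjusted p = 0.0103) and 0.065 with SAM (adjusted p = 0.705), with a large SE of 0.15. Its level was low, with group means between 0.86 and 1.44 log2 CPM. The DZ value passed without a variance trend and with robust estimation, median centring, or a replicate block (limma Benjamini-Hochberg adjusted p between 0.00697 and 0.00925). The adenine call of Cda did not hold without CTL dish 1 (-0.40, adjusted p = 0.0425), adenine dish 2 (-0.55, adjusted p = 0.0132), or adenine dish 3 (-0.40, adjusted p = 0.0406). Nor did it hold with plain read totals (-0.45, adjusted p = 0.0145) or in a separate model of CTL and adenine (adjusted p = 0.0124).

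Among nucleotide kinases, Nme2 fell by 0.57 with adenine and by 0.45 with SAM, at 0.090 with DZ (limma Benjamini-Hochberg adjusted p = 0.0604). Nme6 rose by 0.56 with DZ and fell by 0.39 with adenine and by 0.43 with SAM. The adenine call of Nme6 did not hold without adenine dish 3 (-0.33, adjusted p = 0.012). Prps1 and Prps2, which make the ribose donor PRPP that Umps uses, rose by 0.28 and 0.23 with DZ and by 0.18 and 0.18 with SAM, and stood at -0.015 and 0.12 with adenine, not past the threshold. The SAM call of Prps2 did not hold without CTL dish 1 (0.14, limma Benjamini-Hochberg adjusted p = 0.0332), CTL dish 3 (0.18, adjusted p = 0.0127), SAM dish 1 (0.17, adjusted p = 0.0141), or SAM dish 2 (0.18, adjusted p = 0.0134). Without a variance trend (adjusted p = 0.015) and with median centring (0.14, adjusted p = 0.0261) it was lost as well. Of the 4 genes of PRPP supply in the table, 3 rose and 1 fell with DZ, 0 rose and 2 fell with adenine, and 2 rose and 1 fell with SAM.

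**Figure D4:**
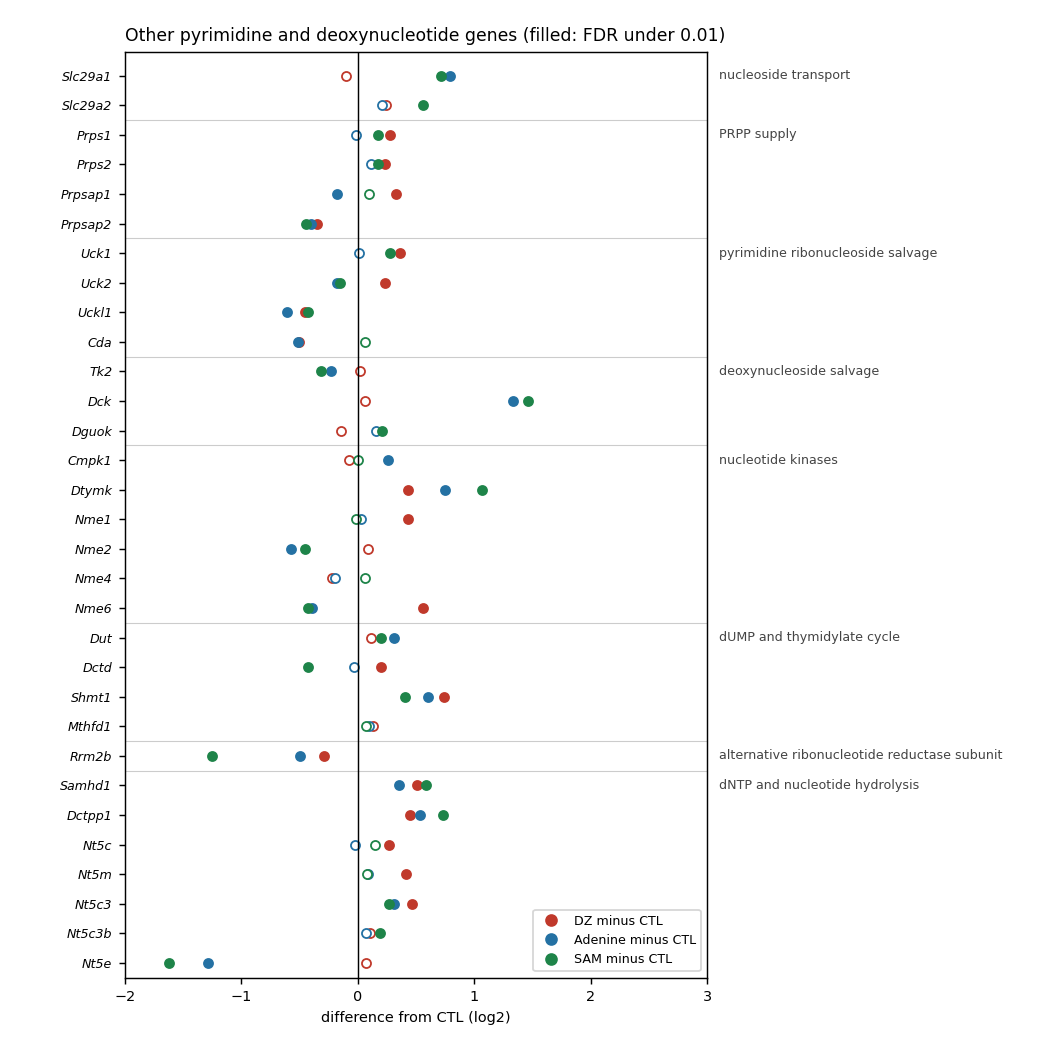
Log2 difference from CTL (x axis) of 31 other pyrimidine and deoxynucleotide genes, grouped by role at the right. Filled points passed an FDR of 0.01 and open points did not. Dck stands out to the right and Nt5e to the left with adenine and SAM, and Rrm2b to the left with SAM, while DZ points lie between -0.50 and 0.74.

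Since RNA of Tk1, Tyms, and the reductase subunits follows the cell cycle, other cell cycle markers were read in the same libraries, with the members left out. Of 40 S phase markers, 24 rose and 1 fell with DZ, 38 rose and 1 fell with adenine, and 39 rose and 1 fell with SAM, at median log2 differences of 0.25, 1.34, and 1.76. Of 52 G2/M markers, 19 rose and 2 fell with DZ, and all 52 rose with adenine and with SAM, at medians of 0.098, 1.55, and 1.90. Among all genes, 22.6%, 30.6%, and 33.7% were higher with DZ, adenine, and SAM, and 45.9% passed with DZ in either direction. With all dishes included, the share of G2/M markers that passed with DZ was thus below that of all genes. With single dishes left out, the G2/M count with DZ ran from 15 to 26 of 52, and 4953 to 5244 of all genes passed. At 26 of 52 the G2/M share lay above that of all genes, so the order of the shares did not hold in every fit. The S phase count with DZ was 16 without DZ dish 2. Summed over the S phase list, the level was 1268 to 1279 CPM in CTL, 1372 to 1488 in DZ, 2534 to 2574 in adenine, and 3114 to 3159 in SAM. The G2/M sum was 2585 to 2620 CPM in CTL, 2653 to 2979 in DZ, 6147 to 6433 in adenine, and 7283 to 7591 in SAM. The sums stood in the same order as the levels of Tk1, Rrm1, and Tyms, and their part in the changes of these genes was not tested.

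Of the single markers, Mki67, the Ki-67 proliferation antigen, rose by 2.02 with adenine and 2.26 with SAM, Cdk1 by 1.45 and 1.83, Top2a by 1.48 and 1.57, and the replication clamp Pcna by 0.93 and 1.23. With DZ, Top2a stood at 0.019 and Pcna at 0.066, neither past the threshold (limma Benjamini-Hochberg adjusted p of 0.784 and 0.194). Cdk1 rose by 0.21 and Mki67 by 0.28 with DZ, and neither call held in every setting. The Cdk1 call did not hold without CTL dish 1 (0.20, adjusted p = 0.0135), DZ dish 2 (0.17, adjusted p = 0.0183), or DZ dish 3 (0.19, adjusted p = 0.0166). Without a variance trend it was lost as well (limma Benjamini-Hochberg adjusted p = 0.0114). The Mki67 call was lost with any single CTL dish left out, without DZ dish 2 or DZ dish 3, and with a replicate block (adjusted p = 0.0103). It was also lost without a variance trend and with robust estimation, median centring, quantile normalization, or voom (limma Benjamini-Hochberg adjusted p between 0.0121 and 0.0464). Mcm2, a subunit of the replicative helicase, rose by 0.11 with DZ, fell by 0.11 with adenine, and fell by 0.13 with SAM. None of these calls held in every setting. The DZ and adenine calls failed without a variance trend. The DZ call also failed with median centring, and the adenine and SAM calls with quantile normalization. The adenine and SAM calls of Mcm2 did not hold with plain read totals (-0.046 and -0.0098) or without CTL dish 3 (-0.082 and -0.11), the adenine call did not hold without CTL dish 1 or adenine dish 1 or 2 (between -0.091 and -0.11), and the DZ call did not hold without CTL dish 1 or 2 or any single DZ dish (between 0.081 and 0.12).

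**Figure D5:**
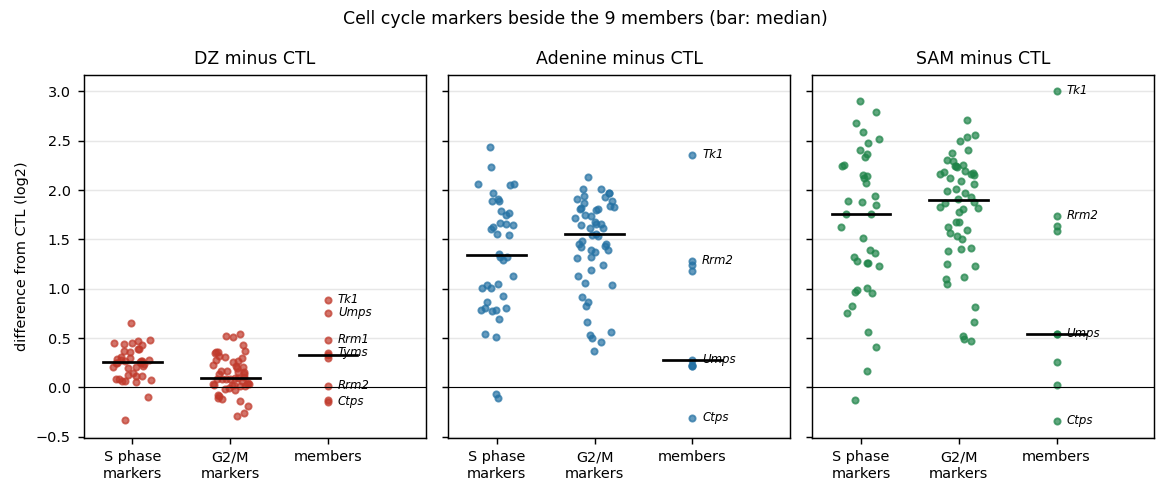
Log2 difference from CTL (y axis) of 40 S phase markers, 52 G2/M markers, and the 9 members (x axis) in each treatment. Points are genes and bars are medians, with a small sideways scatter for legibility. With adenine and SAM, Rrm1, Rrm2, Tyms, and Tk1 lie within or above the span of the markers, and the remaining members lie near 0 or modestly above or below it.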

How the data were processed

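RNA of 12 libraries was sequenced. The authors trimmed reads with Trimmomatic, aligned them to GRCm39 with HISAT2, quantified them with StringTie, and applied edgeR to genes whose level reached 1 CPM in every library (versions not given in the sources used here). The values deposited by the authors are log2 CPM of normalized library size, and 0 columns were left unmapped. Reads were recovered from them with a prior count of 2, each within 0.0025 of a whole number, and are StringTie estimates.

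Differences were tested two-sided with limma 3.58.1 (R 4.3.3), fitting the 4 groups together with an intensity trend on the variance, with Benjamini-Hochberg adjustment over 12591 genes and an FDR of 0.01. In a test on simulated data, 200 of 12591 genes were made to differ with DZ. Each was changed by the same size, up or down, and the spread between dishes was set alike for all genes. That size was larger than any member difference with DZ, which reached 0.89 on the log2 scale. Of the changed genes 100% were recovered, and 2.44% of the calls were false, above the FDR of 0.01. Whether these percentages hold where 45.9% of all genes pass, as with DZ here, was not tested. Recovery of smaller differences, such as all those of the members with DZ, among them -0.13 for Ctps2, was not tested.

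Symbols and positions come from GENCODE vM39, which matched 12575 identifiers, and levels per kb use its canonical transcripts. Transcripts alike over at least 500 bases at 80% identity or more were sought with minimap2 2.31. Python 3.11.15 made tables and plots. Genes were named by a fixed rule: all members, other pathway genes called with a log2 difference of at least 0.5 in any treatment, 10 fixed pathway genes (of which Cmpk2 is not in the table), 5 cell cycle markers, overlapping genes, and the 2 genes most alike to each member. One gene picked by this rule has its values left out here, and the counts include it. Tk2 and Cd68 were named besides, after their values were seen. The members and lists were chosen with earlier results of these data known. Same-numbered dishes had Pearson r between -0.142 and 0.181 in their deviations. Differently numbered dishes were not compared, so whether the numbers pair dishes was not tested. Each result was recomputed without the trend, with robust estimation, 2 filters on low values, 3 other scalings (median centring, quantile normalization, plain read totals), voom on the recovered reads, a pseudocount of 1 CPM, an FDR of 0.05, a log2 difference of at least 0.5, separate models, a replicate block, and each dish left out.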

Additional observations from a re-analysis of the deposited data

How the results depend on the processing

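Of 1026 recomputed member values, 975 kept direction and call, 40 lost the call, 4 gained it, and 7 turned direction. Requiring a log2 difference of at least 0.5 left 2 members with DZ, 4 with adenine, 1 between SAM and adenine, 4 between DZ and adenine, and 4 between DZ and SAM. It left 4, 10, and 9 of the other pathway genes with DZ, adenine, and SAM and 2 between SAM and adenine, 1 S phase marker with DZ and 8 between SAM and adenine, and 3 G2/M markers with DZ and 9 between SAM and adenine. Of all genes it left 1536 with DZ, 3386 with adenine, 4425 with SAM, 1215 between SAM and adenine, 3441 between DZ and adenine, and 4340 between DZ and SAM. Leaving out each dish gave 16 to 28 S phase markers with DZ.

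The values that turned direction were small and uncalled in either setting. Cad with SAM was -0.018 with median centring, -0.026 without SAM dish 1, and -0.00010 without SAM dish 2, with a range of -0.026 to 0.090 over single dishes left out. Rrm2 with DZ was -0.0012 with median centring and -0.027 without DZ dish 3 (range -0.027 to 0.039). Ctps between SAM and adenine was 0.0020 with quantile normalization and 0.026 with plain read totals. With adenine and plain read totals, Dctd was 0.028 and Prps1 0.047, and Prps1 was 0.031 without adenine dish 3 (range -0.043 to 0.031). Cda with SAM was -0.044 without SAM dish 1 (range -0.044 to 0.18), Dck with DZ was -0.011 without CTL dish 3 (range -0.011 to 0.13), and Top2a with DZ was -0.030 without DZ dish 2 and -0.0043 without DZ dish 3 (range -0.030 to 0.091). The cause of these shifts was not tested.

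With the replicate number as a block, 0 of the member calls changed, and 8, 9, and 8 members passed with DZ, adenine, and SAM. The fewest reads on any member were those on Tk1 in CTL, 508 to 531 per library, and how far depth limits its values was not tested. Transcripts alike to Ctps, Rrm2, Tk1, and Tyms, among them the pseudogenes Gm16465, Gm11485, Gm5742, and Tyms-ps, are not in the table, and reads shared with them could not be separated here.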

Other observations

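Across the 12 libraries in 4 groups, and over 10939 protein-coding genes, the genes whose log2 levels had the highest Pearson r with each member were as follows, given as a description of libraries that share treatment and scaling. Rrm2 was most alike to Suv39h1 (0.998), a histone H3K9 methyltransferase gene, and Ckap4 (0.998). Tk1 was most alike to Crabp1 (0.998), a retinoic acid binding protein gene, and Mcm3 (0.997), a subunit of the replicative helicase. Rrm1 was most alike to Map2k3 (0.997) and Cse1l (0.997), and Tyms to Aunip (0.992) and Mns1 (0.992).

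Umps was most alike to Ube2l6 (0.993), the conjugating enzyme of ISG15, and Tgtp2 (0.988), an interferon-inducible GTPase gene. Dhodh was most alike to Pml (0.979), which encodes the scaffold of nuclear bodies, and Abcb10 (0.972). Cad was most alike to Tada2b (0.978) and Utp6 (0.969), Ctps to Rnft2 (0.981) and Msantd1 (0.979), and Ctps2 to Gdf11 (0.990) and Zfp575 (0.989).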
